A study of Rattus with 9 samples.

Results

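The CD8 T cells of rat extrahepatic bile duct are described here across a series of single-cell RNA-seq libraries. They were chosen by their RNA: a barcode had to hold at least 2 of the 3 CD3 genes Cd3d, Cd3e and Cd3g, at least 1 molecule of Cd8a or Cd8b, and none of Cd4, Foxp3, Il17a, Cd79b, Csf1r and Epcam. This rule found 7785 CD8 T cells among 150379 kept cells, which is 5.18%. The series covers Sprague-Dawley rats of both sexes in 3 arms, with 9 samples and 20 libraries analysed here. Sham ducts gave 3 samples, each a single library. The LT group had liver transplantation, and the raised-flow group had liver transplantation together with ligation of the splenic and gastroduodenal arteries, which raises hepatic arterial flow. Both transplanted arms had 1 sample at each of days 1, 3 and 7, and each of these samples was the sum of 3 libraries, except raised flow at day 3, where 2 were analysed. The labels give the sham samples no day, and whether several rats stand behind a sample is not stated in them, so p-values measure the spread between these samples, which may be technical.

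CD8 T cells recognise peptides on MHC class I molecules and kill the cells that present them. They do so with perforin, which opens membranes, and granzymes, which are proteases that enter through these openings, and they also release chemokines and interferon gamma. Naive and central memory cells keep the transcription factors Tcf7 and Lef1, while repeatedly stimulated cells carry inhibitory receptors such as Lag3, Pdcd1, Havcr2 and Ctla4. In a liver allograft, CD8 T cells are among the cells that infiltrate bile ducts.

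The CD8 T cells were spread very unevenly. The 3 sham samples held 22, 37 and 54 of them, 113 in all. The LT samples held 59, 163 and 3249 at days 1, 3 and 7, and the raised-flow samples held 151, 1044 and 3006. Thus 6255 of the 7785 cells (80.3%) came from the day 7 samples, and any value of the sham samples rests on few cells. The summed CD8 counts ran from 97699 UMIs (unique molecular identifiers, each marking 1 captured RNA molecule) in a sham sample to 16801519 in LT day 7, and the median CD8 T cell held between 2557 and 6953 UMIs.

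The libraries were uneven. The second library of LT day 7 held 57 CD8 T cells, 0.776% of its kept cells, while the other 2 of that sample held 1626 (12.3%) and 1566 (11.5%). The raised-flow day 7 libraries held 17.7%, 3.35% and 7.55%. In LT day 1 the second library held 3 CD8 T cells, and in LT day 3 the other 2 held 2 and 7 cells, so that 154 of the 163 cells of LT day 3 came from the first library. In LT day 3 the limit on hemoglobin UMIs removed 6548 barcodes, against at most 330 in any other sample. An estimate of free RNA, made from genes of other cell types and from barcodes with 100 UMIs or fewer, was 17.1% of CD8 UMIs in sham 2, 32.6% in sham 3, 30.4% in library 3 of raised-flow day 1 and 68.8% in the second of LT day 1. It was 23.1% in the first library of raised-flow day 7, which held 2183 CD8 T cells, the most of any library, and 13.0% and 13.5% in the large libraries of LT day 7. The kept barcodes shared between libraries of a sample were at most 0.395%, with 0 CD8 T cells among them, and those shared between samples at most 1.19%, with 6 CD8 T cells in all.

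The defining markers fitted the name. Within the CD8 T cells, Cd3e ranged from 547 to 1173 CPM (UMIs of the gene per 1e6 UMIs of the summed CD8 T cells of a sample), Cd8a from 621 to 1210 CPM and Cd8b from 178 to 289 CPM, as the rule requires. Among genes that the rule did not use, the T cell kinase Lck ranged from 219 to 420 CPM in CD8 T cells and from 4.63 to 55.5 CPM in the sum of all other kept cells. The natural killer receptor Ncr1 was at 0 in 7 of 9 samples of CD8 T cells and reached 0.584 CPM at most, against 102 to 279 CPM in NK cells. Other genes that NK cells use were present: Klrd1, a lectin-like receptor, ranged from 101 to 297 CPM in CD8 T cells and from 513 to 886 CPM in NK cells, and Il2rb, a chain of the interleukin-2 receptor, from 55.0 to 132 and from 248 to 537 CPM. The NK cells were gated on at least 2 of Ncr1, Klrd1 and Il2rb, so their levels of these genes are partly set by that gate. Thy1, a surface protein, was at 0 to 4.35 CPM in CD8 T cells and at 0 to 3.87 CPM in CD4 T cells. In CD8 T cells it was below the level of the other kept cells (1.95 to 20.1 CPM) in every sample. Transcripts of both chains were found in 51.8% of the cells, Cd8a alone in 43.6% and Cd8b alone in 4.61%. Just outside the rule lay 523 cells with CD8 and 1 CD3 gene, and 109 cells with both CD4 and CD8 transcripts. Possible doublets, by a high gene count for their library or by markers of another cell type, made up 13.4% of the CD8 T cells. The share was uneven, at 36.4% in sham 1 (8 of 22 cells) and 39.3% in LT day 3 (64 of 163) and between 6.78% and 13.9% in the other 7 samples. Over all kept cells the figure was 7.95%, but there mixed markers were looked for in CD4 and CD8 T cells only, so the percentages are not alike.

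CD8 T cells were scarce in sham ducts and reached about 10% of kept cells at day 7, but the groups overlapped. Their share of kept cells was 0.896%, 0.371% and 0.451% in the sham samples. In the LT samples it was 0.428% at day 1, 2.001% at day 3 and 9.502% at day 7, and in the raised-flow samples 0.621%, 5.91% and 10.8%. Day 1 of both arms lay within the sham range, and days 3 and 7 of both arms lay above it. Over all samples the share was 4.88 ± 4.55% (mean ± SD, n = 6) after transplantation and 0.573 ± 0.283% (n = 3) in sham. The difference of 4.30 points did not pass a two-sided exact permutation test (p = 0.143), which so few samples make coarse. A share of cells depends on what digestion released, so more CD8 T cells and fewer other cells cannot be told apart from it.

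**Figure D1:**
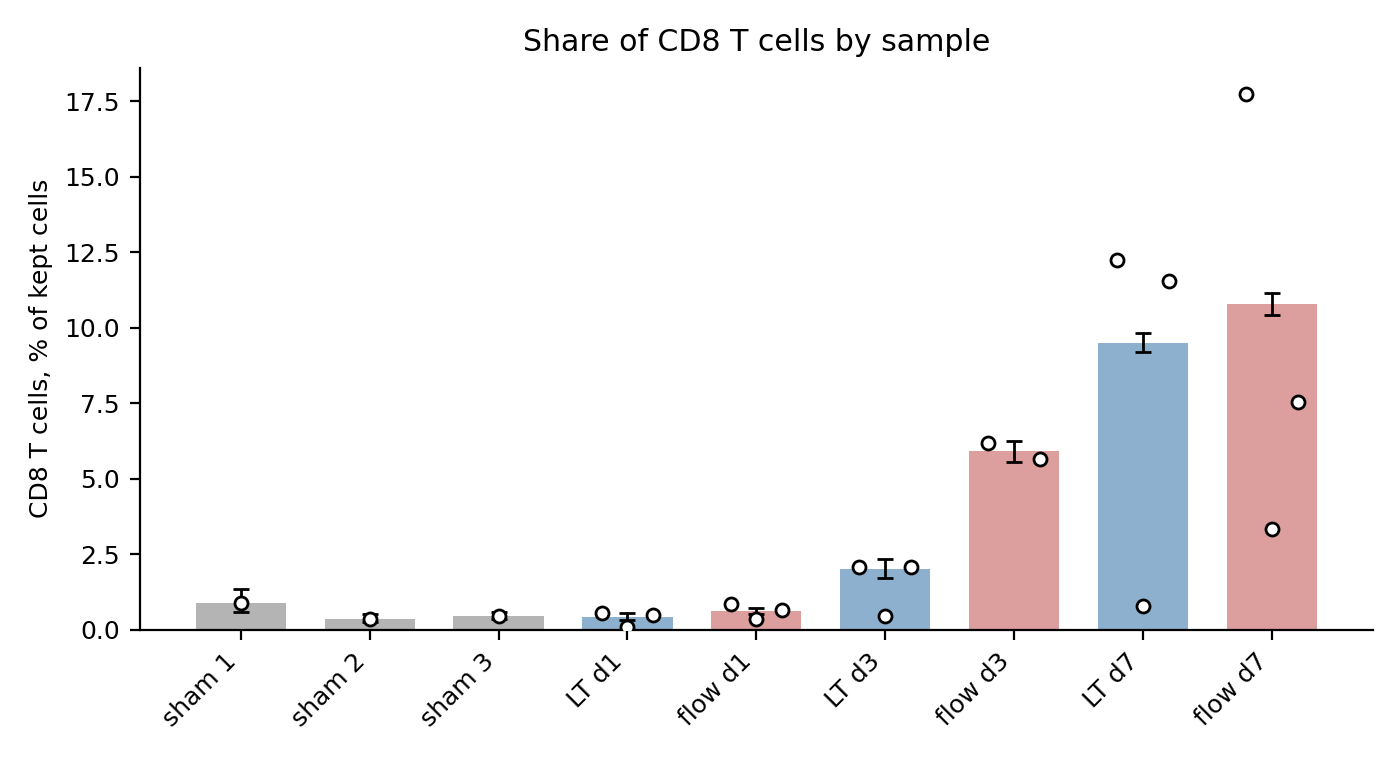
CD8 T cells as a percentage of kept cells in each of the 9 samples. Bars give the share of the sample with its 95% Wilson interval, which covers counting error only, and open circles give the share in each library; the day 7 bars stand at 9.502% and 10.8%, above every other sample, while their libraries range from 0.776% to 17.7%.

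Of cells gated by CD3 genes, CD8 T cells were 36.7%, 39.4% and 31.8% in sham. They were 29.9%, 40.4% and 58.4% at days 1, 3 and 7 of LT and 24.2%, 50.1% and 58.7% with raised flow. The day 1 samples lay below all sham samples and the other 4 above them, and the difference between transplanted and sham samples was 7.68 points (exact permutation p = 0.429). Among cells with CD4 or CD8 transcripts but not both, CD8 T cells made up 87.6 ± 7.30% (n = 6) after transplantation and 90.7 ± 6.40% (n = 3) in sham (exact permutation p = 0.595). In this comparison the sham samples held 4, 1 and 6 CD4 T cells. A further 5775 cells gated by CD3 genes held neither Cd4 nor CD8 transcripts, against 656 CD4 T cells in all. They stand outside this percentage, which is therefore not a share of all T cells.

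After transplantation the CD8 T cells carried more RNA of granzyme A and perforin and of the receptors Lag3, Ctla4, Tnfrsf9 and Icos, and less of Id2, Trat1 and Gpr183. UMI counts of the CD8 T cells were summed per sample, scaled by TMM and fitted with edgeR's quasi-likelihood test, with terms for day and raised flow, and adjusted p is by Benjamini-Hochberg over all genes tested. Of 6682 genes tested, 145 (2.17%) passed at an adjusted p under 0.05 in transplanted against sham samples. Of these, 36 (0.539%) were higher and 109 (1.63%) lower after transplantation. Values per sample below are CPM on the TMM scale, and those of both arms are set side by side within a day.

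Gzma encodes granzyme A, a trypsin-like protease of the killing granule. It stood at 138, 94.3 and 46.8 CPM in the sham samples, at 173 (LT) and 420 (raised flow) CPM at day 1, at 1040.0 and 1907 CPM at day 3 and at 2609 and 2071 CPM at day 7. Every transplanted sample lay above every sham sample, as was so for 11.5% of all genes tested in either direction. The difference was 3.50 ± 0.37 on the log2 scale (± SE), 11.3-fold (adjusted p = 0.00043). The raised-flow day 1 level rests on 1 library: its libraries 1, 2 and 3 had 716, 376 and 16.5 CPM, from 325, 34 and 5 UMIs in 62, 26 and 63 CD8 T cells. Without library 1 that sample fell to 111 CPM, inside the sham range, and the difference was 3.07 ± 0.37 (adjusted p = 0.0040).

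Prf1 encodes perforin. Its levels were 59.1, 39.3 and 40.9 CPM in sham, then 68.1 and 114 CPM at day 1, 213 and 138 CPM at day 3 and 690.5 and 409 CPM at day 7. The groups did not overlap, though LT day 1 lay near the highest sham sample, and the difference was 2.22 ± 0.36 (log2; adjusted p = 0.0086). Prf1 was at 192, 55.3 and 23.1 CPM in the raised-flow day 1 libraries. Without library 1 that sample was at 34.1 CPM, below every sham sample, and the difference was 1.78 ± 0.29 (adjusted p = 0.016). Nkg7, a granule membrane protein of cytotoxic lymphocytes, overlapped between the groups, with 956, 668 and 818 CPM in sham and 701 to 2378 CPM after transplantation (log2 difference 0.67 ± 0.19, adjusted p = 0.087).

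Not all effector genes moved. Of 16 tested genes of the cytotoxic granule and effector list, 2 were higher (Gzma and Prf1) and 1 lower (Ctsw, a cysteine protease of cytotoxic lymphocytes, log2 difference -0.91 ± 0.22, adjusted p = 0.048), whose call held in 8 of 19 alternative settings. The median log2 difference of the list was -0.17, against 0.02 over all genes. Gzmk, another granzyme, differed by -0.04 ± 0.29 (adjusted p = 0.97), with 181 to 483 CPM in sham and 135 to 531 CPM after transplantation. The chemokine genes Ccl5 and Ccl4 differed by -0.18 ± 0.30 and -0.47 ± 0.30, and Ifng by -0.93 ± 0.49, and none of these passed. Ccl5 was low at day 3, with 756 and 391 CPM, and high at day 7, with 6663 and 10199.9 CPM, beside the sham values of 4169, 1509 and 2396 CPM.

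Few UMIs were assigned to Gzmb, the gene named for granzyme B. It had 0 UMIs in all 3 sham samples, 0, 0 and 81 UMIs at days 1, 3 and 7 of LT and 1, 49 and 54 with raised flow, and it was not tested. Gzmbl2, of the same granzyme family, reached 49.3, 181 and 199 CPM in sham, 147 and 487 CPM at day 1, 1186 and 1015 CPM at day 3 and 611 and 733 CPM at day 7. How reads of genes of this family were assigned was not examined, so their single levels are uncertain.

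Lag3, an inhibitory receptor that binds MHC class II, stood at 108, 78.6 and 81.8 CPM in sham. It was at 168 and 136 CPM at day 1, at 492 and 646 CPM at day 3 and at 1763 and 1438 CPM at day 7. The groups did not overlap and the difference was 2.54 ± 0.26 (log2), 5.83-fold (adjusted p = 0.00043). The raised-flow day 1 libraries had 223, 44.3 and 43.0 CPM. Without library 1 the sample was at 48.3 CPM, below every sham sample, and the difference was 2.28 ± 0.36 (adjusted p = 0.015). Ctla4, which competes with Cd28 for its ligands, also stood apart between the groups, at 29.6, 70.7 and 29.2 CPM in sham and 80.8 to 185 CPM after transplantation (1.62 ± 0.38, adjusted p = 0.046), and its call held in 11 of 19 alternative settings. Pdcd1, the gene of PD-1, was at 7.86 to 19.7 CPM in sham, from 6 UMIs in all, and at 22.8 to 51.5 CPM after transplantation, a difference of 1.31 ± 0.51 that did not pass (adjusted p = 0.22). Of 10 tested inhibitory receptor genes, 2 were higher and 0 lower, with a median difference of 0.24.

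Of 11 tested costimulatory receptor genes, 2 were higher and 0 lower. Tnfrsf9 (4-1BB), which is induced by stimulation of the T cell receptor, was at 19.7, 55.0 and 40.9 CPM in sham and overlapped with them at LT day 1, with 47.1 CPM. In the other transplanted samples it ran from 129 to 527 CPM, and the difference was 2.24 ± 0.46 (adjusted p = 0.025). Icos ranged from 76.0 to 148 CPM in sham and from 147 to 392 CPM after transplantation (1.32 ± 0.28, adjusted p = 0.028). Without library 1 of raised-flow day 1, Ctla4, Tnfrsf9 and Icos did not pass, with differences of 1.56 ± 0.38, 1.88 ± 0.40 and 1.30 ± 0.29 and adjusted p of 0.076, 0.058 and 0.065, and Tnfrsf9 was at 56.8 CPM in that sample.

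**Figure D2:**
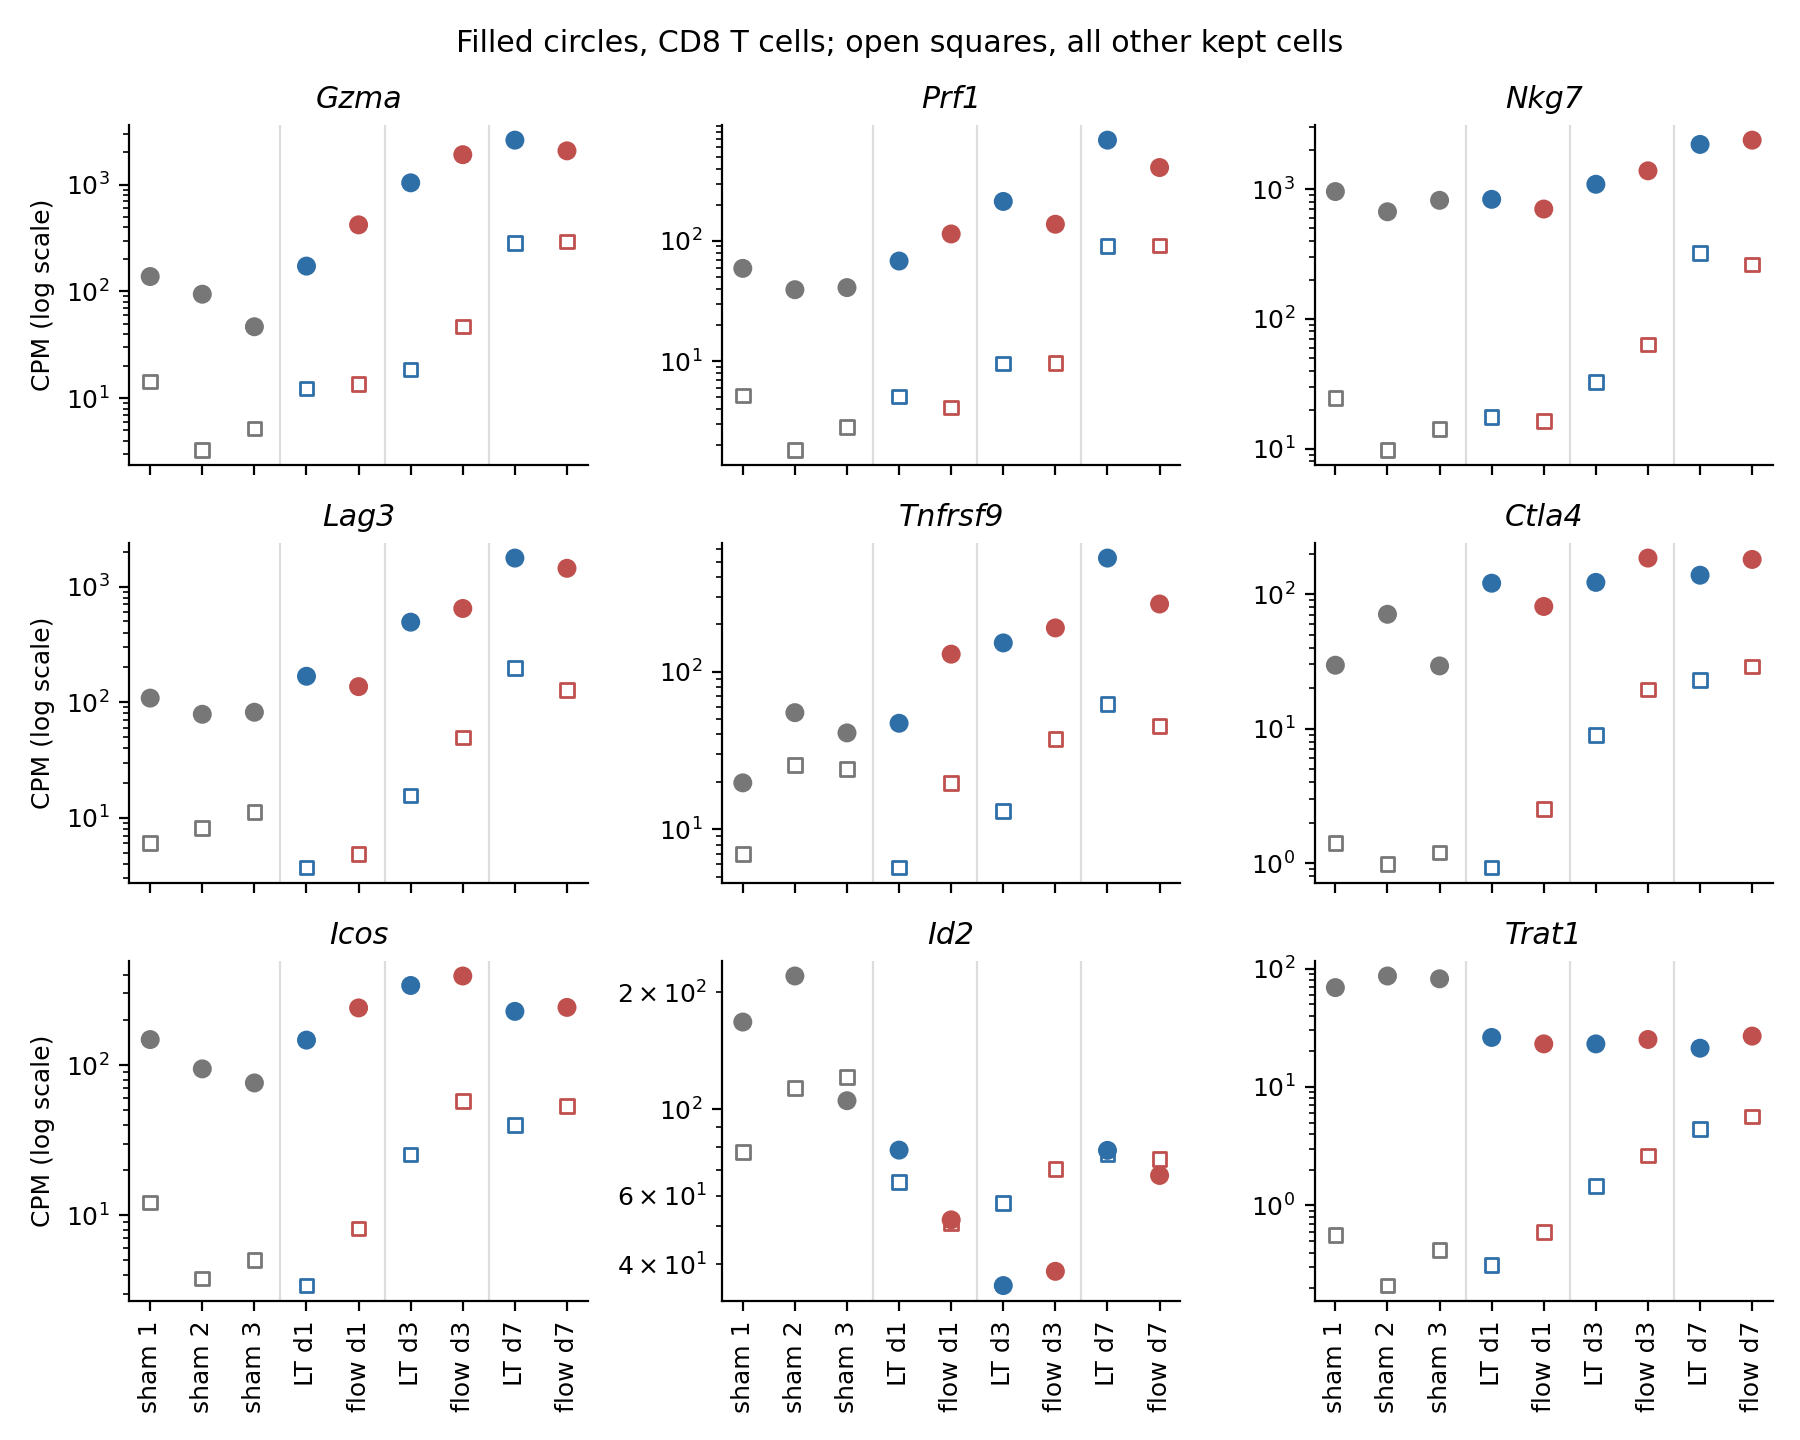
Levels of 9 genes in each sample, in CPM on a logarithmic axis, for the summed CD8 T cells (filled circles) and for all other kept cells (open squares). In CD8 T cells Gzma runs from 46.8 to 138 CPM in sham to 2071 and 2609 CPM at day 7, while Trat1 lies at 69.0 to 86.4 CPM in sham and at 21.2 to 26.9 CPM after transplantation.

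Id2, a regulator that effector and resident T cells use, was at 168, 220.0 and 105 CPM in sham and at 35.2 to 78.5 CPM after transplantation, without overlap (-1.55 ± 0.28, adjusted p = 0.014). Trat1, an adaptor bound to the T cell receptor complex, did not overlap either (-1.75 ± 0.32, adjusted p = 0.014). Gpr183, an oxysterol receptor that guides lymphocytes, stood at 108 to 189 CPM in sham and at 32.2 to 89.0 CPM after transplantation (-1.74 ± 0.30, adjusted p = 0.010). Of 11 tested residency genes, 0 were higher and 2 lower, namely Itga1 (-3.69 ± 0.89, adjusted p = 0.049) and Litaf (-1.06 ± 0.25, adjusted p = 0.044), while Cd69 and Itgae differed by 0.33 ± 0.26 and -0.83 ± 0.43 and did not pass. The calls of Itga1 and Litaf held in 7 of 15 and 6 of 19 alternative settings, among them other scaling, other filters and leaving out 1 sample.

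Among genes of naive and central memory cells, the homing receptor Ccr7, the transcription factor Tcf7 and the interleukin-7 receptor Il7r differed by 0.61 ± 1.09, -0.37 ± 0.58 and -0.96 ± 0.58 and did not pass.

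Immediate early genes respond quickly to stimulation and to tissue handling. Of 17 tested, 5 passed and all of these were lower: Fos (-1.27 ± 0.27), Nr4a3 (-1.62 ± 0.30), Nr4a2 (-1.33 ± 0.30), Egr1 (-1.22 ± 0.28) and Dusp1 (-1.04 ± 0.20). Fos was at 453, 582 and 339 CPM in sham and overlapped with 492 CPM at LT day 1, while the other transplanted samples ran from 96.2 to 196 CPM. In the other kept cells the mean of Fos was 1415 CPM in sham and 699 CPM after transplantation, and the part of sample handling in this was not tested. The calls of Fos and Egr1 held in 10 and 8 of 19 alternative settings.

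In the remaining lists few genes passed. Of 17 tested glycolysis and hypoxia genes, 3 were higher and 0 lower, namely Pgk1 (1.16 ± 0.23), Eno1 (0.96 ± 0.23) and Ldha (0.88 ± 0.19), with a list median of 0.46. The call of Eno1 held in 7 of 19 alternative settings. Ldha, which turns pyruvate into lactate, was at 643 to 739 CPM in sham and at 890.0 to 1758 CPM after transplantation. Of 29 tested interferon-stimulated genes, 0 were higher and 2 lower, Ifi27 (-1.78 ± 0.37) and Ifi27l2b (-1.27 ± 0.20), and the list median was -0.30. None of the 26 tested cell cycle genes passed in either direction, though 24 of them were positive, with a median of 0.87. Mki67, a marker of cycling cells, was at 17.5 to 55.0 CPM in sham and at 10.5 to 157 CPM after transplantation (1.29 ± 0.56, adjusted p = 0.26). These values rest in part on library 1 of raised-flow day 1, where Mki67 was at 194 CPM, against 11.1 and 9.92 CPM in the other 2 libraries of that sample. Without it the difference of Mki67 was 0.33, and 17 of 26 cell cycle genes were positive, with a median of 0.33. Among trafficking receptor genes, Itgb1, an integrin chain, was lower (-1.28 ± 0.29), with a call that held in 9 of 19 alternative settings, as was Gpr183. None of the 14 tested NK-type receptor genes, 17 cytokine receptor genes or 4 innate-like T cell genes passed.

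**Figure D3:**
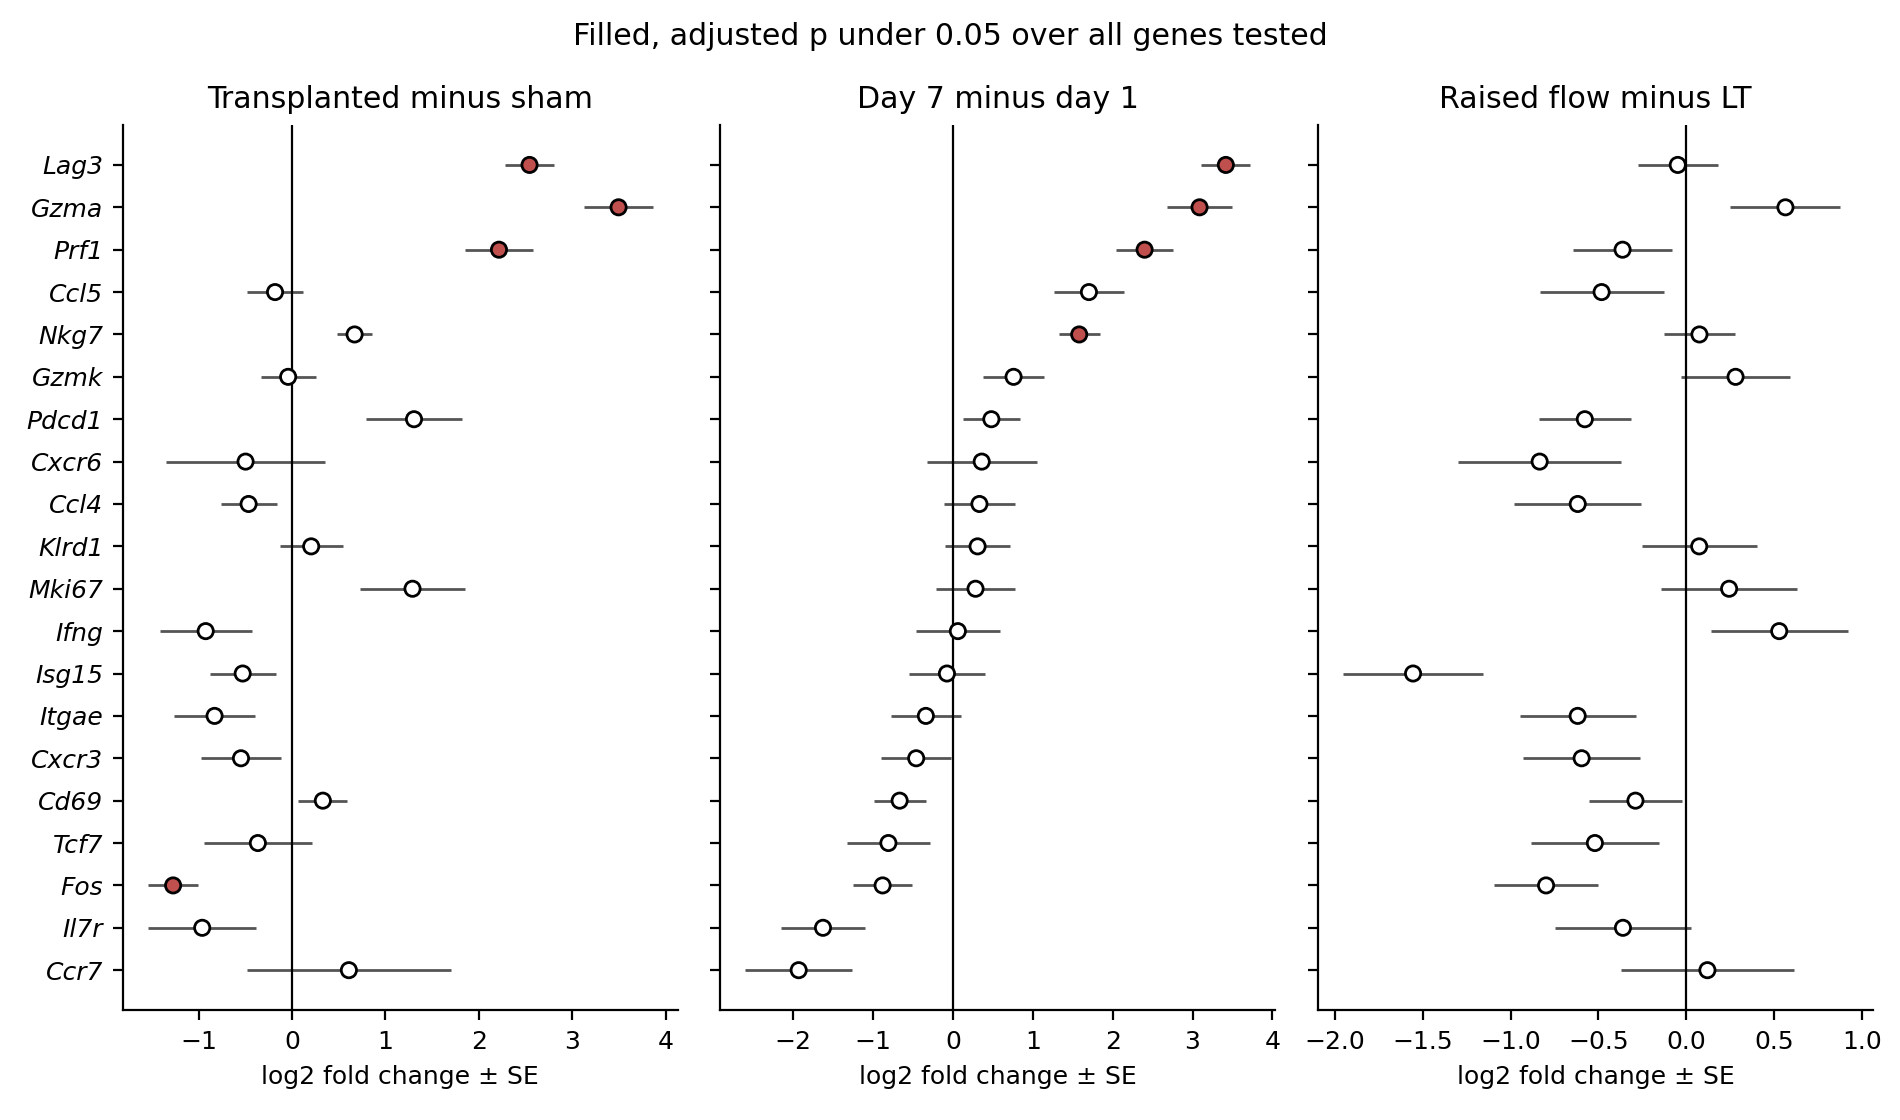
Log2 differences with their SE for the 20 tested genes of the core list, in transplanted against sham samples, in day 7 against day 1 and in raised flow against LT. Filled points passed at an adjusted p under 0.05; Gzma, Prf1 and Lag3 passed in the first 2 contrasts and no gene passed in the third.

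Of the 145 genes that passed, 57 had a mean level in CD8 T cells at or above that in the other kept cells, 26 of them higher and 31 lower, and 88 lay below it, 78 of which were lower after transplantation. Among all 6682 genes tested, 3499 (52.4%) had a mean level at or above that in the other kept cells. The largest falls were those of pancreatic acinar enzymes. Prss1, a trypsinogen, stood at 0, 251 and 462 CPM in the sham CD8 T cells and at 0 to 2.95 CPM after transplantation, and Ctrb1, Pnlip, Pla2g1b and Cela2a shared this pattern, as did the uncharacterised locus LOC103689940, with 0, 134 and 427 CPM in sham and 0 to 9.11 CPM after transplantation. The collagen gene Col1a1 stood at 9.86, 1045 and 2484 CPM in sham and at 10.5 to 397 CPM after transplantation (-3.54 ± 0.69). The highest transplanted value, that of raised-flow day 1, came from library 3, with 331 of 344 UMIs, and without that library the difference was -4.68. Of 8 tested fibroblast and mural genes, 5 were lower and 0 higher.

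Among the largest rises were 3 genes outside the lists, each without overlap. Slpi, a secreted protease inhibitor, was at 0, 7.86 and 11.7 CPM in sham, from 3 UMIs in all, and at 32.3 to 691 CPM after transplantation (adjusted p = 0.032). The highest value, that of LT day 1, came from library 2, whose 3 CD8 T cells held 124 of the 132 UMIs. Without that library the log2 difference was 4.13 (adjusted p = 0.0038), against 5.10 in the full fit. Slpi was far higher in the other kept cells, at a mean of 270 CPM in sham and 3815 CPM after transplantation. Nudcd2 was at 9.86, 0 and 0 CPM in sham, from 1 UMI, and at 36.6 to 65.6 CPM after transplantation (adjusted p = 0.017), where the other cells had means of 37.8 and 45.2 CPM. Rpa2, a subunit of the protein that coats single-stranded DNA, was at 5.84 to 19.7 CPM in sham, from 5 UMIs, and at 41.9 to 139 CPM after transplantation (2.68 ± 0.54, adjusted p = 0.023).

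The summed level of 10 fibroblast and mural genes in CD8 T cells was 71.6, 3763 and 9306 CPM in sham and 77.9 to 2208 CPM after transplantation. That of 13 acinar enzymes, a list made after these values were seen, was 10.2, 1063 and 1986 CPM in sham and 0 to 38.4 CPM after transplantation. The sum of 12 biliary epithelial genes was 235 to 381 CPM and 41.5 to 202 CPM, and 2 of 5 tested, Krt8 and Krt18, were lower. Neutrophil genes summed to 10.2, 15.5 and 202 CPM in sham and to 357 to 1958 CPM after transplantation, the highest being LT day 1, and none of the 4 tested passed. Without library 2 of LT day 1 and its 3 CD8 T cells, the neutrophil sum of that sample was 209 CPM. Sham 2 and sham 3 carried the fibroblast and acinar sums and sham 1 did not. The 8 genes of B and plasma cells summed to at most 50.7 CPM and the 6 of mast cells and basophils to at most 3.54 CPM in any sample of CD8 T cells. Macrophage and monocyte genes summed to 17.3 to 604 CPM in sham and 93.3 to 569.5 CPM after transplantation, hemoglobin and other red cell genes to 28.9 to 931 and 168 to 469 CPM, and 8 endothelial genes to 23.3 to 110 and 5.57 to 147 CPM. The part of RNA from other cells in the falls of acinar, fibroblast and epithelial genes was not tested.

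**Figure D4:**
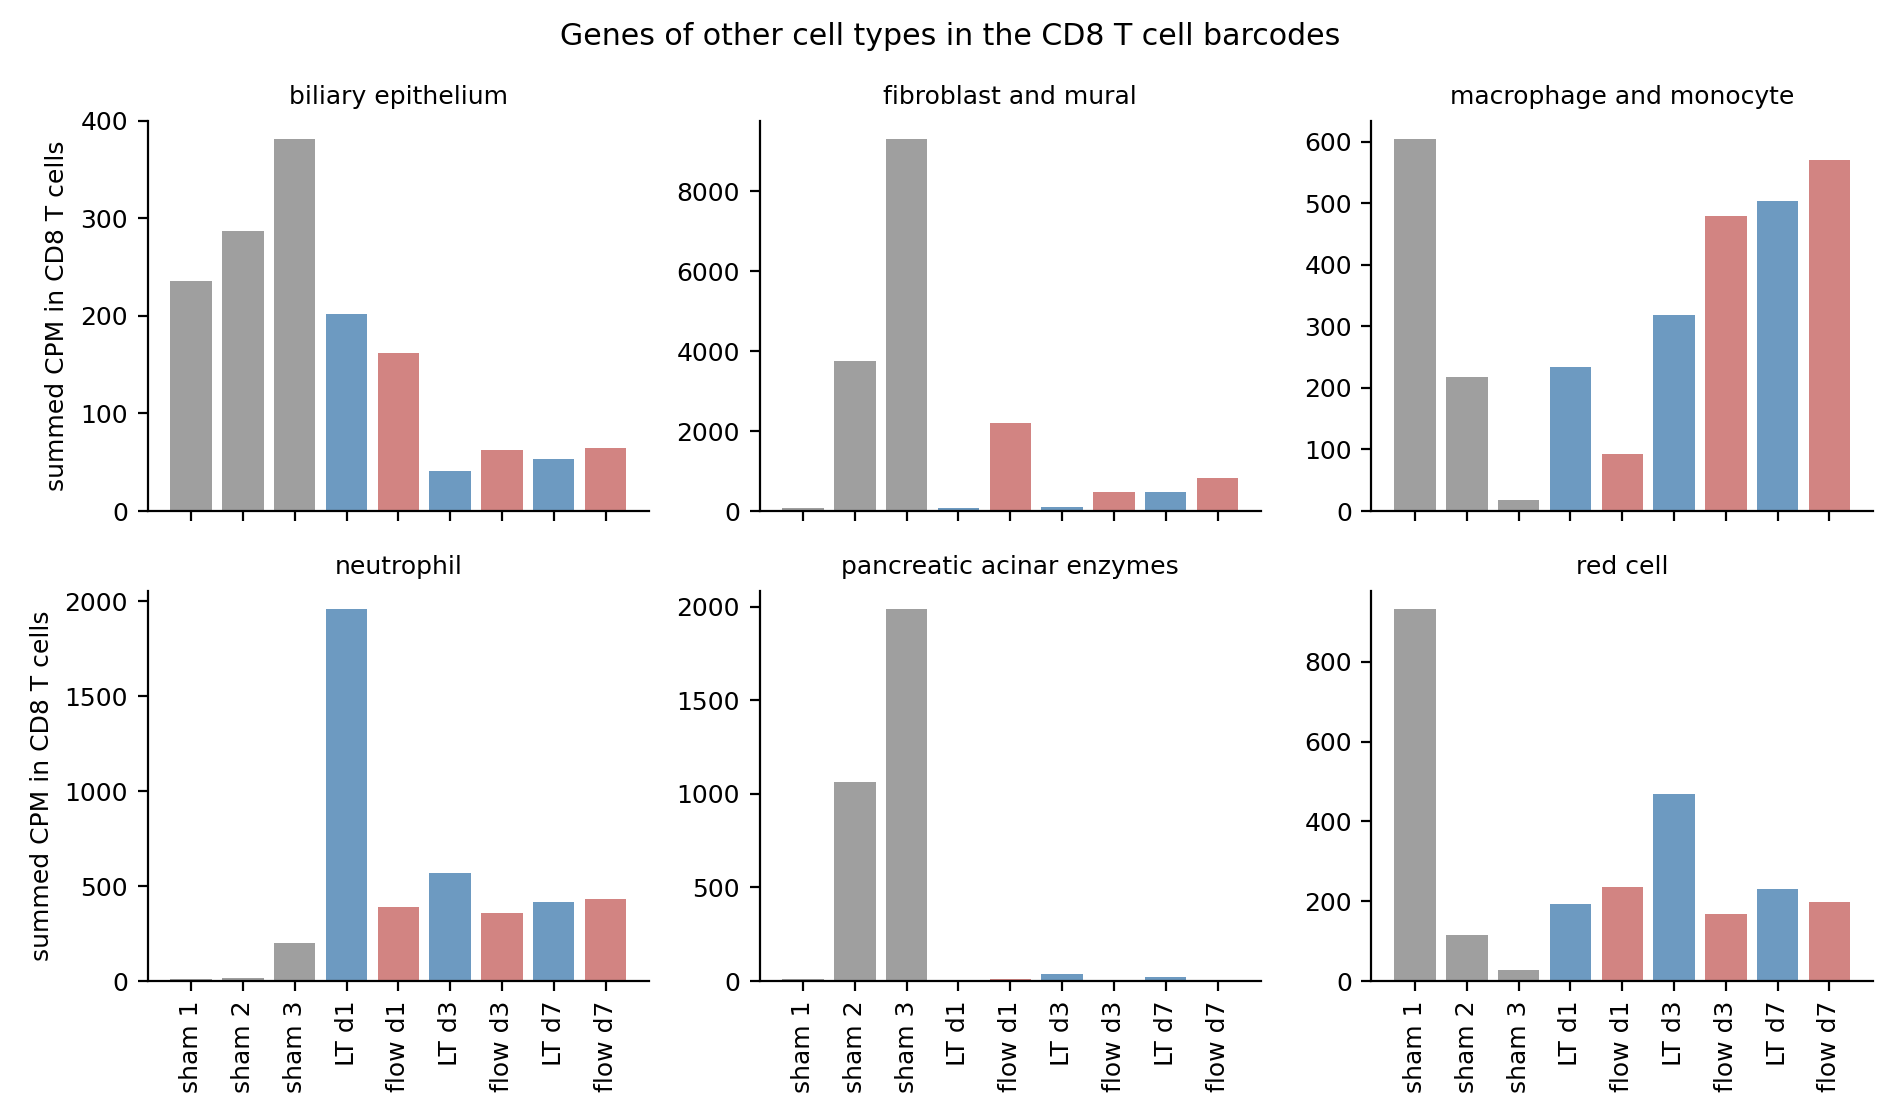
Summed CPM of 6 marker lists of other cell types within the CD8 T cells, by sample. Fibroblast and acinar sums are highest in sham 2 and sham 3, at 3763 and 9306 CPM and at 1063 and 1986 CPM, and the neutrophil sum is highest in LT day 1, at 1958 CPM, or 209 CPM without its library of 3 CD8 T cells.

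Gzma, Lag3 and Prf1 were at or above their levels in other kept cells in every sample. Gzma had 14, 12 and 8 UMIs in the sham samples, and its level in the other cells was 3.30 to 14.3 CPM there and 12.3 to 293 CPM after transplantation. With free RNA subtracted, the difference of Gzma kept its sign and its call, as did that of Lag3. The same held without the libraries that stood apart, meaning those with under 20 CD8 T cells, or under 100 at day 7. These were libraries 2 and 3 of LT day 1 and of LT day 3, and library 2 of LT day 7. Leaving out sham 3 cut the genes called from 145 to 9, leaving out sham 2 cut them to 20, and leaving out LT day 3 to 95, while leaving out sham 1 gave 317 and LT day 1 gave 332. With each library taken as a sample the count was 38. Without library 1 of raised-flow day 1 it was 38 as well, 6 higher and 32 lower and all among the 145, in a fit of 4583 genes. The calls lost with that library include those of Slpi, Rpa2, Pgk1, Ldha, Eno1, Dusp1, Nr4a2, Egr1, Ifi27 and Col1a1.

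At equal depth of 1500 UMIs per cell, more of the CD8 T cells held Gzma, Prf1 and Lag3 transcripts late after transplantation. Such shares of other effector genes are not given here. Gzma was found in 5.00%, 2.94% and 5.66% of the sham cells, in 7.14% and 6.76% at day 1, in 16.0% and 23.2% at day 3 and in 40.3% and 40.4% at day 7. In B cells, which should lack it, the share was 0 to 1.95%. Without thinning, the CD8 shares ran from 5.00% to 48.1%. Lag3 was found in 5.00% to 13.2% of sham cells, in 12.5% and 9.46% at day 1 and in 67.4% and 64.1% at day 7, against at most 3.41% of B cells. Prf1 was found in 3.77% to 15.0% of sham cells, which overlaps with 3.57% and 9.46% at day 1, and in 37.9% and 32.4% at day 7. Gzma and Gzmk transcripts together were found in 0 to 5.00% of sham cells and in 19.0% and 19.8% at day 7. The cells thinned numbered 20, 34 and 53 in sham and 56 to 3070 in the transplanted samples, so a sham share moves by several points with 1 cell.

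Between day 1 and day 7, RNA of Gzma, Prf1, Nkg7 and Cst7 and of Lag3, Havcr2 and Tox rose, while most other tested genes of the same lists did not pass. The arms were tested together, since each had 1 sample a day. Here 38 of 6682 genes passed (0.569%), 28 higher at day 7 (0.419%) and 10 lower (0.15%). With 2 samples a day, 43.7% of all genes tested did not overlap between the days, so non-overlap is common and is not counted below.

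Lag3 rose from 152 ± 22.1 CPM at day 1 to 1600 ± 230 CPM at day 7 (mean ± SD, n = 2 each), a log2 difference of 3.42 ± 0.31 (adjusted p = 9.5e-05). Gzma rose from 297 ± 175 to 2340 ± 380 CPM (3.09 ± 0.41, adjusted p = 0.0034) and Prf1 from 91.2 ± 32.7 to 549 ± 199 CPM (2.40 ± 0.36, adjusted p = 0.0069). Nkg7 rose from 767 ± 92.9 to 2291 ± 123 CPM (1.58 ± 0.26, adjusted p = 0.013). Together with Cst7, an inhibitor of granule proteases (1.93 ± 0.39), these made 4 of 16 tested cytotoxic genes higher and 0 lower. Ccl5 was at 2854 ± 1450 CPM at day 1 and 8431 ± 2501 CPM at day 7, which did not pass (1.703 ± 0.44, adjusted p = 0.18), nor did Gzmk (0.76 ± 0.38). The difference of Ccl5 moved with single libraries, from 1.04 without library 1 of raised-flow day 7 to 2.66 without library 1 of LT day 1. It passed in 2 of 16 such fits, without library 1 of LT day 1 (adjusted p = 0.0016) and without library 3 of LT day 7 (adjusted p = 0.026). Its day 7 libraries ran from 1206 to 13250 CPM. Mki67 differed by 0.28 ± 0.49 and did not pass, but it did without library 1 of raised-flow day 1 (2.92, adjusted p = 0.028).

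Of 10 tested inhibitory receptor genes, 3 were higher at day 7 and 0 lower, all 10 had a positive difference, and the list median was 1.02 against -0.00 over all genes. Tox, a regulator of repeatedly stimulated T cells that stands in this list, was at 9.86 to 39.3 CPM in sham and at 15.7 to 24.3 CPM in the day 1 and day 3 samples. It was at 123 and 115 CPM at day 7, above all other samples (day 7 against day 1 2.41 ± 0.38, adjusted p = 0.0093). Havcr2 (Tim-3) rose by 2.02 ± 0.41 (log2; adjusted p = 0.043), from 5.24 and 17.3 CPM at day 1 to 52.9 and 58.1 CPM. Prdm1 (Blimp-1), which drives effector differentiation, rose by 2.02 ± 0.41, and Pdcd1 differed by 0.48 ± 0.36 and did not pass. The calls of Havcr2 and Prdm1 held in 9 and 10 of 19 alternative settings, and that of Cst7 in 10. With 1 library left out at a time, each of these 3 calls was lost in 8 of 16 fits, and the difference of Havcr2 ran from 1.59 without library 3 of raised-flow day 1 to 3.91 without its library 1.

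Cd40lg, the ligand with which helper T cells activate other cells, was at 29.6 to 40.9 CPM in sham, at 31.4 and 23.1 CPM at day 1, at 20.05 and 12.0 CPM at day 3 and at 6.52 and 5.06 CPM at day 7 (day 7 against day 1 -2.24 ± 0.43, adjusted p = 0.039). Lef1, a transcription factor of naive T cells, fell from 166 ± 10.3 to 60.1 ± 3.31 CPM (-1.44 ± 0.29, adjusted p = 0.043). It was the only called gene of the 11 tested naive and central memory genes, of which 9 had a negative difference. The calls of Cd40lg and Lef1 held in 8 and 9 of 19 alternative settings, and in 10 and 7 of the 16 fits without 1 library.

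Outside the lists, Slc27a2, a fatty acid transport protein, stood out. It had 0, 1 and 0 UMIs in sham and 0 and 3 UMIs at day 1, and reached 107 and 85.7 CPM at day 7, against 14.0 and 7.16 CPM in the other cells (5.04 ± 0.60, adjusted p = 0.0017). LOC312273, an uncharacterised locus, rose by 5.87 ± 0.83. Gzmbl3, of the granzyme B family, and Calca, the gene of calcitonin and its related peptide, had 0 UMIs in both day 1 samples and reached 119 ± 5.49 and 62.3 ± 23.2 CPM at day 7, and no fold is given for them. Gzmbl3 was already at 416 CPM in library 1 of LT day 3, above its day 7 level, and at 38.7 and 36.5 CPM in the raised-flow day 3 libraries. The uncharacterised loci AABR07060872.1 and AABR07034739.1 had 0 and 2 and 0 and 1 UMIs at day 1. They reached 429 and 180 CPM and 247 and 25.6 CPM at day 7 in LT and raised flow, below their levels in the other cells there.

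Genes with more RNA in other cells moved too. The MHC class II gene RT1-Da and its chaperone Cd74 rose by 2.52 ± 0.45 and 2.35 ± 0.42 between these days. Both were lower in CD8 T cells than in the other kept cells, where Cd74 was at 521 and 479 CPM at day 1 and at 5600.3 and 6053 CPM at day 7. With free RNA subtracted the differences of RT1-Da and Cd74 changed sign, to -2.84 and -1.97. The sum of 6 class II and presentation genes in CD8 T cells was 1535, 2281 and 629 CPM in sham. It was 449 (LT) and 327 (raised flow) CPM at day 1 and 1458 and 1750 CPM at day 7, inside the sham range. In transplanted against sham samples RT1-Da was called lower, and all 5 tested genes of this list were negative, with a median of -1.28. The epithelial and neutrophil genes Reg3g (-3.85), Reg3b (-4.72), Gsta1 (-4.44), Lcn2 (-4.37), Tff3 (-3.08) and Gpx2 (-2.44) fell, and all lay below their level in other cells. Without library 3 of raised-flow day 1 the difference of Gsta1 changed sign, to 1.85, and Tff3 and Gpx2 did not pass. Counting only genes at or above their level in other cells, which were 3499 (52.4%) of those tested, 23 passed, 20 higher and 3 lower.

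The libraries of a sample were not alike. At raised-flow day 1 the first library was the highest for Gzma, Prf1 and Lag3, as given above, and for Tnfrsf9 (203, 22.1 and 59.5 CPM), Gzmbl2 (913, 22.1 and 19.8 CPM) and Nkg7 (1058, 786 and 185 CPM), while Icos (227, 476 and 205 CPM) was highest in the second. Without that library, 48 genes passed between day 1 and day 7, and Gzma, Prf1 and Lag3 differed by 4.06 ± 0.44, 3.45 ± 0.31 and 4.01 ± 0.45. Without library 3 of that sample, 11 genes passed, and Prf1 (2.12 ± 0.42, adjusted p = 0.083) and Tox (2.12 ± 0.40, adjusted p = 0.065) did not. The count was 13 without library 2 of raised-flow day 3, 19 and 22 without the first library of LT day 7 and of raised-flow day 7, and 25 without library 3 of LT day 1.

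At day 7, Gzma stood at 2537, 601 and 2596 CPM in the LT libraries and at 2075, 2616 and 2003 CPM in the raised-flow libraries, where the 601 CPM belongs to the library with 57 CD8 T cells. Lag3 was at 1924, 292 and 1602 CPM and at 1675, 694 and 1276 CPM, lowest in the library of each sample with the smallest share of CD8 T cells. Without the libraries that stood apart, as defined above and with no raised-flow library among them, 26 genes passed between day 1 and day 7. Leaving out a single sample gave 17 to 60 genes, with 17 without raised-flow day 1, 18 without raised-flow day 7, 22 without LT day 7 and 60 without sham 1.

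Against the sham samples, which the first comparison also used, day 7 had 68 genes that passed (1.02%), 23 higher (0.344%) and 45 lower (0.673%). Lag3 was 4.18 ± 0.29 higher on the log2 scale, Gzma 4.79 ± 0.41, Prf1 3.56 ± 0.39 and Tnfrsf9 3.33 ± 0.49. Nkg7 passed here (1.49 ± 0.23, adjusted p = 0.0061), and Tox was higher by 2.40 ± 0.43. Cd40lg (-2.70 ± 0.50), the costimulatory receptor Slamf1 (-1.73 ± 0.38), Trat1 (-1.74 ± 0.34) and Cish, a feedback inhibitor of cytokine signalling (-2.52 ± 0.51), were lower. Ccl5 came close to the threshold without passing (1.72 ± 0.38, adjusted p = 0.051).

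Between raised flow and LT no gene passed within days (0 of 6682, which is 0% in each direction), while DESeq2 called 2. An unadjusted p under 0.05 was found for 124 genes, fewer than a 0.05 share of the genes tested. The groups of 3 did not overlap for 5.54% of genes. Gzma differed by 0.57 ± 0.31 (log2), Prf1 by -0.36 ± 0.28, Lag3 by -0.05 ± 0.23 and Nkg7 by 0.08 ± 0.20, each with an adjusted p of 1.

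Interferon-stimulated genes had mostly lower values with raised flow, which rested largely on 1 library of LT day 7, and none passed. Of 29 tested, 26 were negative with raised flow, and their median was -0.75 against 0.01 over all genes. Isg15, a ubiquitin-like protein induced by type I interferon, stood at 398, 208 and 563 CPM at days 1, 3 and 7 of LT and at 156, 140 and 85.7 CPM with raised flow (-1.56 ± 0.40, adjusted p = 1). Irf7, a regulator of interferon genes, differed by -1.85 ± 0.30 (adjusted p = 0.20). Of 26 tested cell cycle genes, 23 were positive with raised flow, with a median of 0.23, and all 8 tested fibroblast and mural genes were positive, with a median of 1.93, and none of these passed either. The libraries of LT day 7 were far apart, with Isg15 at 44.9, 267 and 930 CPM. Without library 3 of LT day 7, Isg15 differed by -0.39, and 18 of 28 interferon-stimulated genes were negative, with a median of -0.12. Without library 1 of raised-flow day 1, 11 of 26 cell cycle genes were positive, with a median of -0.04. Isg15 passed among cells with both chains (-2.25, adjusted p = 0.014) and without the low-count filter (-1.50, adjusted p = 4.9e-05), but not otherwise.

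Cells with both Cd8a and Cd8b transcripts and cells with 1 of the chains differed in several genes, which is given as a description because more deeply sampled cells are more likely to show both. Gzma was higher with both chains in 8 of 9 samples, with 3145 against 1447 CPM in LT day 7, 2575 against 1446 CPM in raised-flow day 7 and 2632 against 348 CPM in raised-flow day 3. Gzmk, Nkg7, Lag3, Tnfrsf9, Havcr2 and Cd160 were also higher with both chains in 8 of 9 samples, and Mki67 in 9. Over all 6682 genes, 6.94% were higher with both chains in at least 8 samples and 1.27% in 9. Tcf7, a transcription factor of naive and memory T cells, was higher with 1 chain in 9 of 9 samples, and Fos, Hcst and Tyrobp in 7 of 9, beside 0.614% of all genes in 9 samples and 12.6% in at least 7. Among cells with both chains alone, 49 genes passed in transplanted against sham samples and 27 in day 7 against day 1.

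The share of cycling cells, those with at least 2 of 8 cell cycle genes at equal depth, was 5.00%, 8.82% and 1.89% in sham. It was 1.79% and 6.08% at day 1, 16.0% and 13.0% at day 3 and 7.36% and 7.81% at day 7, with B cells at 0 to 2.45%. All 9 cycling cells of raised-flow day 1 came from library 1 (14.5% of 62 cells), against 0 of 26 and 0 of 60 in its other 2 libraries. The day 3 samples were highest, and the second library of raised-flow day 7 reached 22.6%, against 6.25% and 6.43% in the other 2 of that sample. Such calls rest on a few transcripts per cell, and no proliferation rate was read from them.

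CD8 T cells were also compared with CD4 T cells and NK cells of the same libraries, gated in the same manner. There were 656 CD4 T cells (CD3 genes and Cd4 without CD8) and 1774 NK cells (no CD3 gene and at least 2 of Ncr1, Klrd1 and Il2rb). Samples with at least 20 cells of both types entered, with the sample as a block, and the genes of the gates were left out of the calls. Values in these fits are CPM on the scale of each fit.

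Against CD4 T cells, CD8 T cells were separated by cytotoxic genes. In 5 samples, LT days 3 and 7 and all days of raised flow, 482 of 7696 genes passed (6.26%), 310 higher in CD8 T cells (4.03%) and 172 lower (2.23%). Of 18 tested cytotoxic genes, 13 were higher and 1 lower, with a median difference of 3.03. Gzma ranged from 433 to 2711 CPM in CD8 T cells and from 0 to 25.8 CPM in CD4 T cells (7.71 ± 0.23, adjusted p = 1.2e-08). Prf1 ranged from 118 to 718 CPM against 10.5 to 103 CPM (3.05 ± 0.15), and Nkg7 from 723 to 2464 CPM against 5.23 to 280.2 CPM (3.84 ± 0.28), and none of these 3 overlapped, as was so for 3.16% of all genes tested. The chemokine genes Xcl1 (5.90 ± 0.49), Ccl5 (4.88 ± 0.46) and Ccl4 (3.70 ± 0.58) and the granzymes Gzmm (4.78 ± 0.39) and Gzmk (3.26 ± 0.39) were higher in 5 of 5 samples, as were 10.8% of all genes tested. Of 13 tested NK-type receptor genes, 10 were higher and 0 lower, among them Klrb1b (4.45 ± 0.24), Klrb1c (4.71 ± 0.39) and Klre1 (5.57 ± 0.57).

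Among genes lower in CD8 T cells were Cd40lg and Tnfrsf4. Cd40lg was at 5.24 to 23.8 CPM in CD8 and 133 to 254 CPM in CD4 T cells (-4.14 ± 0.29, adjusted p = 1e-05), and Tnfrsf4 (OX40) at 7.14 to 49.9 and 109.6 to 390.5 CPM (-3.17 ± 0.36). Of 11 costimulatory receptor genes, 2 were higher in CD8 T cells, Slamf7 (2.74 ± 0.50) and Cd27 (0.84 ± 0.13), and 5 lower, with Cd28 at -0.85 ± 0.15, Tnfrsf18 at -0.63 ± 0.14 and Icos at -0.61 ± 0.10. The folate receptor family gene Izumo1r (-3.41 ± 0.22), the CD30 ligand Tnfsf8 (-3.54 ± 0.35) and the transcription factor Maf (-1.77 ± 0.18) were also lower, as were Smpdl3a (-2.43 ± 0.15) and Dclk1 (-2.32 ± 0.24).

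Inhibitory receptors were mixed, with 4 of 12 higher and 2 lower. Cd96 (3.85 ± 0.39), Havcr2 (1.48 ± 0.19) and Entpd1 (1.24 ± 0.31) were higher, and Btla (-1.67 ± 0.37) and Cd200r1 (-1.66 ± 0.42) lower. Lag3 was high in both types, at 140.5 to 1832 CPM in CD8 and 105 to 1540.2 CPM in CD4 T cells, with a difference of 0.65 ± 0.10 (adjusted p = 0.0032) that was positive in 5 of 5 samples. Pdcd1 (0.26 ± 0.14), Cd69 (-0.00 ± 0.11) and Mki67 (-0.13 ± 0.12) did not pass. The macrophage genes Lyz2 (1.02 ± 0.20) and Aif1 (1.11 ± 0.21) and the receptor subunit Fcer1g (0.99 ± 0.21) passed as higher in CD8 T cells. Their differences became -6.29, -4.59 and -2.90 with free RNA subtracted from the CD8 T cells. The CD4 T cells were not corrected, so these values do not decide how the corrected types differ.

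**Figure D5:**
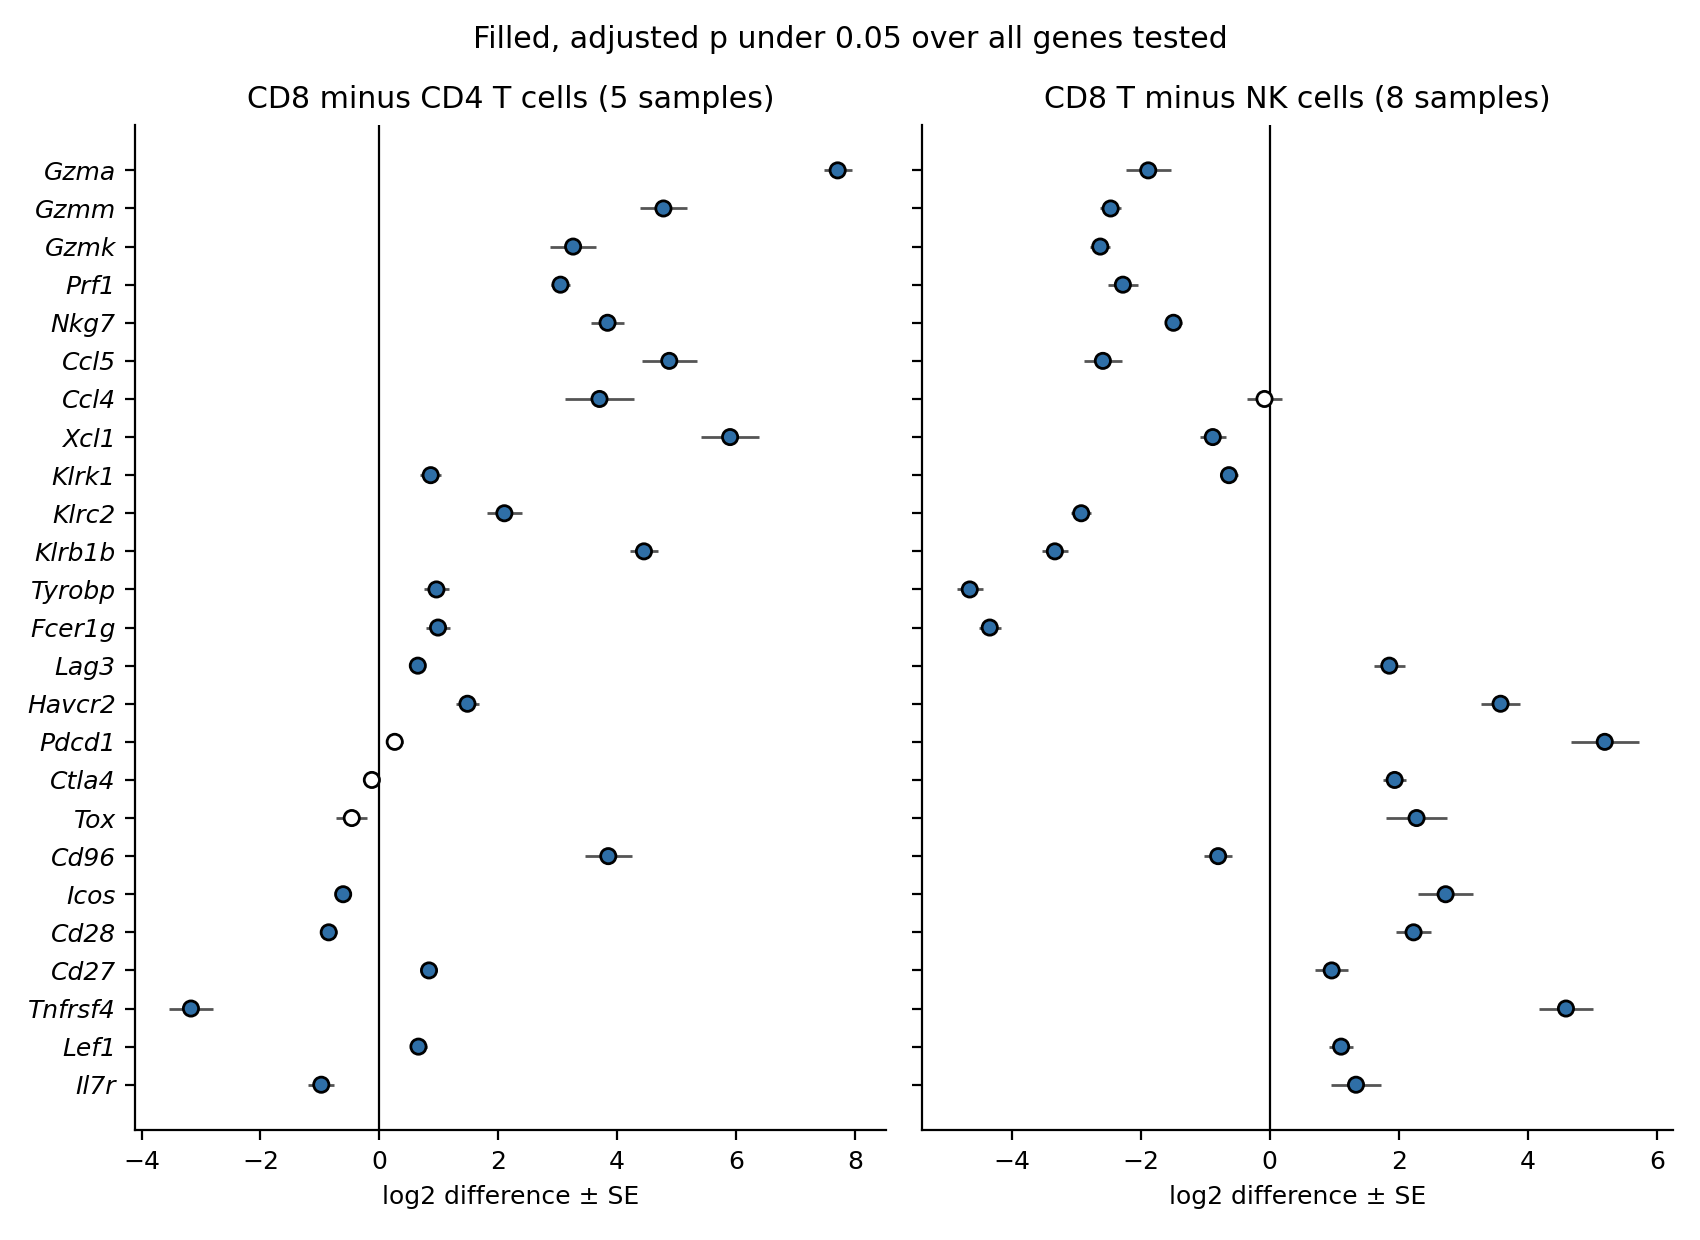
Log2 differences with their SE between CD8 T cells and CD4 T cells (5 samples) and between CD8 T cells and NK cells (8 samples) for 25 genes. Gzma lies at 7.71 against CD4 T cells and at -1.88 against NK cells, while Lag3 lies above 0 in both, at 0.65 and 1.85.

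Against NK cells, the other cytotoxic lymphocytes of these ducts, CD8 T cells had less cytotoxic and more checkpoint RNA. In 8 samples (all but sham 1), 1193 of 5580 genes passed (21.4%), 531 higher in CD8 T cells (9.52%) and 662 lower (11.9%). Of 16 tested cytotoxic genes, 1 was higher and 10 lower. Gzma was at 49.5 to 2637 CPM in CD8 T cells and at 795 to 6280.0 CPM in NK cells, and it was lower in CD8 T cells in 8 of 8 samples, as were 6.45% of all genes tested (-1.88 ± 0.35, adjusted p = 0.00068). Prf1 (-2.28 ± 0.23), Gzmk (-2.63 ± 0.16), Gzmm (-2.47 ± 0.17), Ccl5 (-2.59 ± 0.29) and Nkg7 (-1.49 ± 0.13) were lower too, while Ccl4 (-0.08 ± 0.27) and Ifng (0.64 ± 0.26) did not pass.

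NK-type receptor genes were lower in CD8 T cells. Of 15 tested, 0 were higher and 13 lower, with a median difference of -2.92. Tyrobp, the signalling adaptor of activating NK receptors, was at 6.19 to 211 CPM in CD8 T cells and 1935 to 4626 CPM in NK cells (-4.65 ± 0.20), and Klri1 (-5.50 ± 0.29), Fcer1g (-4.34 ± 0.17) and Cd244 (-3.38 ± 0.23) were lower as well. Klrg1, often used as a mark of terminal effector cells, was at 0 to 24.99 CPM in CD8 T cells and 20.2 to 212 CPM in NK cells (-5.84 ± 0.38).

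Of 9 tested inhibitory receptor genes, 7 were higher in CD8 T cells than in NK cells and 1 lower. Pdcd1 (5.19 ± 0.53), Havcr2 (3.58 ± 0.30), Ctla4 (1.94 ± 0.18) and Lag3 (1.85 ± 0.24) were higher in 8 of 8 samples, as were 4.62% of all genes tested, and Tox (2.28 ± 0.47) in 5 of 8. Cd96 was lower (-0.80 ± 0.22). Of 11 costimulatory receptor genes 8 were higher and 1 lower, with Slamf6 at 3.93 ± 0.38 and Icos at 2.73 ± 0.43, and Cd40lg was at 0 in NK cells of all 8 samples and at a mean of 23.1 CPM in CD8 T cells. Of 14 T cell receptor signalling genes 8 were higher and 2 lower, with Themis (4.39 ± 0.45) and Prkcq (2.12 ± 0.17) among the former. The egress receptor S1pr1 (2.88 ± 0.26) and the membrane protein Ms4a4c (7.10 ± 0.22) were higher without overlap, and 2.01% of all genes tested did not overlap.

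The day 7 minus day 1 change was more positive in CD8 T cells than in NK cells for Gzma, Nkg7 and Tox. An interaction of cell type and day called 22 of 5580 genes (0.394%). Gzma rose from 175 and 434 CPM to 2637 and 2126 CPM in CD8 T cells and from 2768 and 3028 CPM to 4580.2 and 6280.0 CPM in NK cells, a difference between the log2 changes of 2.07 ± 0.36 (adjusted p = 0.012). For Nkg7 it was 1.15 ± 0.19 and for Tox 3.34 ± 0.66, with Tox at 14.8 and 8.5004 CPM in NK cells at day 7. Even at day 7, Gzma in CD8 T cells stayed under its level in NK cells of the same sample.

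The same test for transplanted against sham samples called 8 of 5580 genes (0.143%). Gzmm stood in CD8 T cells at 608 and 514 CPM in sham 2 and sham 3 and 275 to 610.0 CPM after transplantation, and in NK cells at 1606 and 1315 CPM and 1796 to 3868 CPM (-1.36 ± 0.21, adjusted p = 0.0096). Dusp2, a phosphatase of activated lymphocytes, was at 299.9 and 303 CPM in sham and 131 to 181 CPM after transplantation in CD8 T cells, and at 214 and 175 and 247 to 409.7 CPM in NK cells (-1.79 ± 0.30).

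Against CD4 T cells, the day 7 minus day 1 change differed for 69 of 8548 genes (0.807%), in a fit that rests on 5 samples with 2 residual degrees of freedom and on 1 day 1 sample, raised-flow day 1, with 41 CD4 T cells. Among the 69 were genes of stromal cells that stood out in those CD4 T cells: Igf1 was at 1031 CPM there, Serpinh1 at 523, Mfap5 at 353 and Tnfaip6 at 325 CPM, against 73.8, 78.6, 4.76 and 9.52 CPM in the CD8 T cells of the same sample and at most 63.1 CPM in CD4 T cells at day 7. The part of RNA from other cells in these 69 calls was not tested. Nkg7 rose from 723 to 2291 and 2464 CPM in CD8 T cells and from 5.23 to 280.2 and 239 CPM in CD4 T cells (-3.93 ± 0.51). The 5.23 CPM stand for 2 UMIs, so the size of this difference is uncertain. Ccl5 and Gzmk had 0 UMIs in CD4 T cells of raised-flow day 1 and reached 407 to 595 CPM and 86.5 to 101 CPM at day 7, so the size of their difference has no fixed value. Whether the change from sham differed between CD8 and CD4 T cells could not be fitted, since no sham sample had 20 CD4 T cells.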

How the data were processed

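For each library the authors deposited a matrix of raw UMI counts, not normalized and with empty barcodes included. The submitters' processing notes name Cell Ranger 5.0.1 and Seurat 3.2.0, while the matrix headers name Cell Ranger 4; the genome build is not given in the sources used here. The 23999 features carry 23836 symbols, and features sharing a symbol were added up. The first library of raised-flow day 3 was not analysed here.

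A barcode was kept as a cell if it had 401 to 5999 genes, with mitochondrial UMIs below 25% and hemoglobin UMIs below 3%, and CD8 T cells were taken by the transcript rule given in the report. The members and gene lists were chosen with earlier results of these data known. No cell was removed as a doublet in the main values; a high gene count (the top 7.5% of a library) or markers of another cell type marked possible doublets, which an alternative left out. Counts of member cells were summed per sample (at least 20 cells), and libraries of a sample were added up. Sample totals were 21270647 to 290590249 UMIs.

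Genes passing edgeR's filterByExpr were fitted with TMM scaling and glmQLFit in edgeR 4.0.16 (R 4.3.3), over all 9 samples with day and raised flow as additive terms. DESeq2 1.42.0 was an alternative. The additive fit left 4 residual degrees of freedom. The script was tested on simulated counts. Shares were compared by two-sided exact permutation tests in scipy 1.17.1, and their Wilson intervals at 95% cover counting error only. Shares of cells with a transcript were taken after thinning each cell to 1500 UMIs, leaving out shallower cells.

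Genes were named by rule: a core list of 22 genes (20 tested) whatever their values, genes past the threshold from 16 lists of T cell programs and 8 lists of other cell types (351 of 364 list genes are among the features; up to 8 per list), and the 6 largest rises and falls per comparison with at least 50 CPM in the higher group. In the comparisons with CD4 T cells and NK cells, and for day 7 against sham, the text gives only part of the genes that this rule names. Gzmbl2, Irf7, Calca's and Gzmbl3's counts, the acinar list and the genes named from interactions were chosen after their values were seen. Alternatives were other scaling, no low-count filter, libraries as samples, both chains, no doublets, free RNA subtracted (the profile of barcodes with 100 UMIs or fewer, capped at 50% of the counts), no hemoglobin limit, samples of the comparison only and leaving out each sample. Leaving out libraries that stood apart, leaving out in turn each of 16 libraries of the transplanted samples (where at least 20 CD8 T cells were left), counting only genes at or above their level in other cells, leaving out the day term in raised flow against LT, thinning before gating, day 7 against sham and the interactions with NK cells and, for day, CD4 T cells were added after seeing the data. Some items of the lists are not reported here and were left out of the list counts, sums and figures, but they stayed in every fit and in the counts over all genes.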

Additional observations from a re-analysis of the deposited data

Results flagged for a closer look

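Some differences between days or groups were not the same in CD8 T cells as in another lymphocyte of the same samples, by a test of the difference itself. In day 7 minus day 1, CD8 T cells and NK cells differed for 22 genes, among them Gzma (2.07 on the log2 scale, larger in CD8 T cells), Tox (3.34) and Nkg7 (1.15). In transplanted minus sham samples they differed for 8 genes, among them Gzmm (-1.36) and Dusp2 (-1.79). In NK cells both genes stood above sham 2 and sham 3 after transplantation. In CD8 T cells Dusp2 stood below these sham samples and Gzmm overlapped with them. CD8 and CD4 T cells differed in day 7 minus day 1 for 69 genes, among them Ccl5 (-11.90) and Gzmk (-10.83), whose fitted size rests on 0 UMIs in the CD4 T cells of raised-flow day 1. That sample, with 41 CD4 T cells, was the only day 1 sample in the fit, and stromal genes high in those cells, such as Igf1 (1031 CPM) and Serpinh1 (523 CPM), are among the 69, so this difference rests on 1 small sample. The share of kept cells that were CD8 T cells ranged from 0.776% to 12.3% between the libraries of LT day 7 and from 3.35% to 17.7% between those of raised-flow day 7.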

How the results depend on the processing

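The count of genes that passed in transplanted against sham samples, 145, became 330 with DESeq2, 434 without the low-count filter, 38 with each library as a sample, 49 with both chains, 68 with free RNA subtracted, 57 among genes at or above other cells and 1 with LT and sham samples alone. Leaving out 1 sample gave 9 (without sham 3, 8 of them shared) to 332 (without LT day 1). Day 7 against day 1, 38, became 128 without the filter, 89 with samples of the comparison only, 23 among genes at or above other cells and 17 to 60 with 1 sample left out. Raised flow against LT, 0, became 2 with DESeq2, 46 without the filter, 3 with both chains, 1 without possible doublets, 3 with free RNA subtracted, 8 with samples of the comparison only and 0 to 4 with 1 sample left out (4 without sham 1). CD8 against CD4 T cells, 482, became 880 without the filter, 1004 without possible doublets and 205 (without raised-flow day 7) to 488, with 316 without raised-flow day 3. In the comparisons of cell types, possible doublets were left out and free RNA subtracted in the CD8 T cells only. Such counts do not compare like with like. CD8 against NK cells, 1193, became 1806 without the filter and 759 (without raised-flow day 7) to 1327. The difference in the share of CD8 among CD4 and CD8 T cells ranged from -6.06 (without sham 1) to 0.319 points (without sham 2).

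Of 221 called gene results, 2966 of 3475 alternatives kept sign and call, 497 lost the call and 12 changed sign; the cause was not tested. In up to 19 alternative settings Gzma, Lag3 and Prf1 kept their day 7 against day 1 calls in all 19, with log2 ranges of 2.39 to 3.79, 2.98 to 3.61 and 1.86 to 3.36. In transplanted against sham samples Gzma kept its call in 18, Lag3 in 17, Prf1 in 15, Tnfrsf9 and Trat1 in 14, Icos in 13, Ctla4 in 11, Fos in 10, Itgb1 in 9, Ctsw and Egr1 in 8, Eno1 and RT1-Da in 7 and Litaf in 6 of 19, and Itga1 in 7 of 15. Of the other day 7 against day 1 calls, Cst7 and Prdm1 held in 10, Havcr2 and Lef1 in 9 and Cd40lg in 8.

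With 1 of 16 libraries left out at a time, transplanted against sham gave 38 (without library 1 of raised-flow day 1, with 4583 genes tested) to 174 genes, day 7 against day 1 gave 11 (without library 3 of raised-flow day 1) to 48, and raised flow against LT gave 0 to 1. These fits are not among the counts above.

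The sign changes of log2 differences were these. In the comparisons of cell types, doublets were left out and free RNA subtracted in the CD8 T cells only. In CD8 against CD4 T cells, without possible doublets and with free RNA subtracted, Aif1 became -0.0028 and -4.59, Lyz2 -0.37 and -6.29, and RT1-Db1 -0.15 and -3.39, and Fcer1g became -2.90 with free RNA subtracted. In CD8 against NK cells Tagln became -0.22 without possible doublets. In day 7 against day 1, free RNA subtraction gave Cd74 -1.97 and RT1-Da -2.84. With both chains Gsta1 became 6.84, Ifng -0.50, Isg15 0.089 and Itgae 0.43, and without possible doublets Gsta1 became 4.36 and Ifng -0.35. In transplanted against sham samples Gzmk became 0.13 without the filter, 0.12 with libraries as samples, 0.16 with both chains, 0.0035 without the hemoglobin limit and 0.021 without the libraries that stood apart. Both chains gave Ccr7 -0.0097 and Cd69 -0.039, and samples of the comparison only gave Ccl5 0.36 and Isg15 0.17. In raised flow against LT, Ccr7 became -0.016 with both chains and -0.033 without possible doublets, Lag3 0.078 and 0.082 in these and 0.018 with free RNA subtracted, and Nkg7 -0.044 with libraries as samples and -0.0060 without those that stood apart.

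Leaving out 1 sample at a time gave ranges across 0 for genes that had not passed. In transplanted against sham samples these were Ccl5 -0.46 to 0.31, Ccr7 -0.13 to 8.96, Cxcr3 -0.80 to 0.10, Cxcr6 -1.001 to 0.31, Gzmk -0.30 to 0.39, Klrd1 -0.014 to 0.66 and Tcf7 -0.65 to 0.41. In day 7 against day 1 they were Ccl4 -0.48 to 1.31, Ccr7 -2.45 to 0.36, Cxcr3 -1.14 to 0.14, Cxcr6 -0.65 to 1.19, Ifng -0.29 to 1.68, Isg15 -1.07 to 0.71, Itgae -1.08 to 0.24, Klrd1 -0.34 to 1.01 and Mki67 -0.42 to 3.18. In raised flow against LT they were Ccr7 -0.18 to 0.53, Gzmk -0.028 to 0.50, Klrd1 -0.22 to 0.48, Lag3 -0.29 to 0.11, Mki67 -0.20 to 0.86 and Nkg7 -0.061 to 0.23. With 1 library left out at a time, ranges went further for some genes. In day 7 against day 1, Pdcd1 ran from -0.011 to 0.76, Isg15 went down to -1.74 and Gsta1, which had passed, ran from -5.74 to 1.85 (without library 3 of raised-flow day 1). In raised flow against LT, Gzmk went up to 0.85, Nkg7 ran from -0.23 to 0.52 and Lag3 from -0.40 to 0.28, Ccl5 went up to 0.27 (from -1.01 without raised-flow day 7) and Cd69 to 0.16 (from -0.59 without raised-flow day 7).

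Raised flow and LT were matched by day through the day term, which acts as a replicate block of 3 pairs; without this block 0 genes passed too, and Ccl5 became 0.13. No paired analysis was possible against sham because the sham numbers mark no day, animal or batch shared with the other groups; the comparisons of cell types had the sample as a block throughout. The change from sham could not be compared between CD8 and CD4 T cells.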
